A study of Bos taurus with 17 samples.

Results

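The receptors and SMAD proteins that carry BMP and TGF-beta signals into the cell were followed in cow cumulus cells, the somatic cells that surround the oocyte, at 3 stages of oocyte competence acquisition. The genes were the type II receptors BMPR2, TGFBR2 and ACVR2A, the type I receptors BMPR1A, BMPR1B, TGFBR1 and ACVR1, the signal carriers SMAD2 and SMAD3, and the inhibitory SMAD7. These 10 genes were represented by 15 of the 21475 gene probes of the array. A gene symbol, or a provisional LOC number with the gene in its description, gave 5 of these probes. The other 10 were listed under an older name or a sequence tag. They were assigned from a description that named the gene or, for ACVR2A and the untested BMPR1A probe, from the older name itself. Of the 15 probes, 13 were detected on at least 80% of the arrays of every stage and were tested, and they covered all 10 genes.

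Ligands of this family bind a type II receptor kinase, which activates a type I receptor kinase, which in turn phosphorylates a SMAD that moves to the nucleus. The oocyte secretes GDF9 and BMP15, and cumulus cells receive both signals. BMPR2 is the type II receptor used by both ligands, BMPR1B serves BMP15, TGFBR1 serves GDF9, and SMAD2 and SMAD3 are the carriers downstream of TGFBR1, while TGFBR2 is the type II receptor of the TGF-beta ligands and SMAD7 blocks type I receptors.

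NC1 cells came from 6 calves aged 3 to 6 months and surrounded immature prophase I oocytes that were developmentally incompetent or had little competence. C1 cells came from 6 adult cows of various ages and surrounded immature prophase I oocytes that were developmentally competent. C2 cells came from 5 non-lactating adult Holstein cows aged 3 to 5 years that received progestagen implants, FSH/LH superovulation and prostaglandin. Their oocytes had reached metaphase II in vivo and were collected by ovum pick-up. The study's methods name as many animals as there were samples in each stage, so each sample was taken as 1 animal. Each sample was hybridised to 1 single-colour array. NC1 and C1 complexes were taken after slaughter and had compact cumulus, whereas C2 complexes were taken from living cows and had expanded cumulus. Oocyte stage therefore cannot be told apart from donor age in C1 against NC1 and in C2 against NC1. In both C2 comparisons oocyte stage also cannot be told apart from hormone treatment, follicle size and collection. The deposited tissue label reads ovarian follicles, and the study's methods describe cumulus cells detached from the oocyte.

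TGFBR2, BMPR2 and BMPR1B were higher and SMAD2 was lower in C2 than in both immature stages. TGFBR2 showed by far the largest change of the 10 genes, 12.9-fold against C1 and 9.28-fold against NC1. SMAD3 and SMAD7 were spread widely among the 5 C2 arrays, and the remaining receptors did not pass the threshold. No receptor or SMAD passed the threshold between C1 and NC1.

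Stretches of probe sequence show what the array measured. They are given because the change in TGFBR2 and BMPR1B rests on a single probe each, while BMPR2 and SMAD3 were each read by a pair of tested probes with different sequences. The change in SMAD2 also rests on a single probe. Each line gives the last 30 bases of the 60-base probe as deposited, 5′ to 3′, with no base capitalised because no motif was under study.
TGFBR2: aaatactgacttttttcactacgtaaaggg
BMPR1B: tgtatcacgaggtatagtggaagaatatca
BMPR2 brightest probe: taaaaaaggcttgctgtaaaatggtgcatt
BMPR2 other probe: gctttacccacttataaagcttgcagttga
SMAD3 brightest probe: gtgtcctctctcctctcttcctcctgtaag
SMAD3 other probe: ccctgctggattgagctgcacctgaatgga

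Levels are log2 signals relative to the median of the same array, so a level of 0 equals the array's median probe, and levels of different probes are not compared with each other. Changes are differences of stage means on this log2 scale, each with the standard error of the fit. The threshold was a Benjamini-Hochberg adjusted p under 0.01 over 13865 probes in 1 limma fit of the 3 stages. Where a gene had several tested probes, the brightest stood for it.

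On the whole arrays, 66.2% to 82.8% of probes were above background, median signals ranged from 64.2 to 208, and no spot was saturated. The C2 arrays fell into close pairs: the SD of the log2 difference over all probes was 0.44 between replicates 1 and 5 and 0.51 between replicates 3 and 4, against 1.05 to 1.27 for the other C2 pairs and 0.43 to 0.76 within NC1 and C1. Arrays were scanned on 2 days that each held all stages. Of the C2 arrays, the first day held replicates 1, 2 and 5, and the second held only the close pair of replicates 3 and 4. Cumulus and granulosa markers were abundant at every stage, the summed log2 level of the list running from 12.1 to 13.2 in NC1, 12.04 to 12.7 in C1 and 10.8 to 12.7 in C2, but 5 of 8 tested markers (FSHR, AMH, FOXL2, CYP19A1 and HSD17B1) were lower in C2 than in either immature stage. The summed endothelial markers ranged from 0.22 to 1.30 in NC1, 0.13 to 0.43 in C1 and 1.34 to 3.48 in C2, with KDR higher at C2, TEK lower against NC1, and the defining marker CDH5 failing detection. The summed leukocyte markers ranged from 2.65 to 3.76 in NC1, 2.31 to 2.95 in C1 and 2.60 to 4.89 in C2, with 2 of 6 higher in each C2 comparison. The summed theca and stroma markers ranged from 7.11 to 8.07 in NC1, 7.51 to 8.15 in C1 and 7.99 to 9.04 in C2, with LUM alone of 7 past the threshold by the brightest probe of each gene, although a dimmer DCN probe was higher in C2 by 4.08 against C1 and 3.29 against NC1. Of 2 tested red blood cell markers, HBA was lower in C2.

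**Figure D1:**
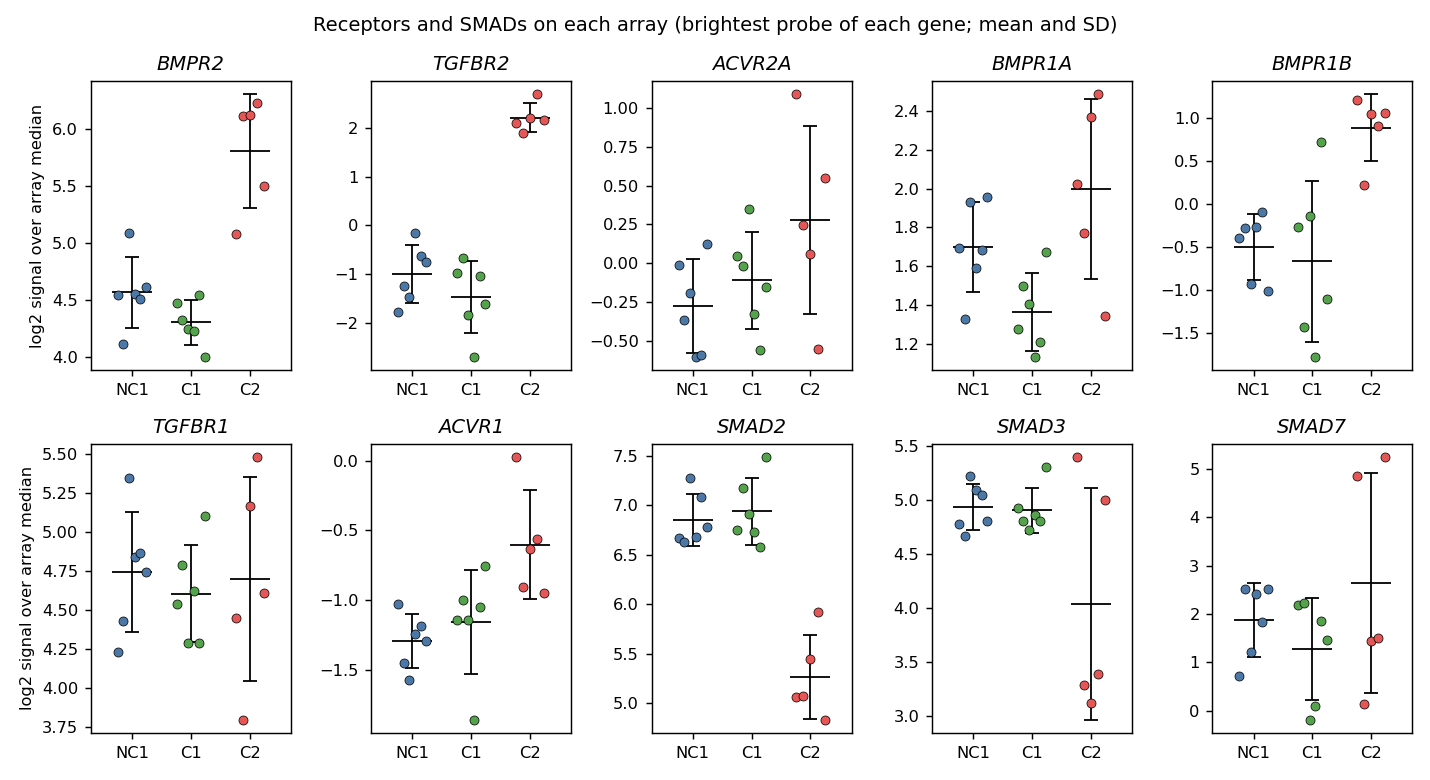
Log2 signal over the array median (y axis) of the brightest probe of each gene on every NC1, C1 and C2 array (points), with the stage mean (horizontal line) and SD (bars); each panel has its own scale. All C2 arrays lie above the NC1 and C1 arrays for TGFBR2 and below them for SMAD2, whereas the C2 arrays of SMAD3 fall on both sides, and those of SMAD7 lie above or within the range of the immature arrays.

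Among the type II receptors, TGFBR2, the binding receptor of the TGF-beta ligands, changed most. Its level was 2.11, 1.89, 2.21, 2.69 and 2.16 on C2 replicates 1 to 5. The C1 arrays ran from -2.70 through a median of -1.33 to -0.67, and the NC1 arrays from -1.77 through -0.997 to -0.16. Every C2 array was therefore above every immature array, with no overlap, and the C2 arrays were close together (SD 0.29, against 0.74 in C1 and 0.59 in NC1). The change was 3.69 (SE 0.33) against C1, with adjusted p = 1.02e-07 by limma, and 3.21 (SE 0.33) against NC1, with adjusted p = 5.89e-07. The exact permutation test over the arrays gave a two-sided p = 0.00433 in each case, the smallest that 5 against 6 arrays allow. Within the first scan day the change against C1 was 3.26 and within the second 4.19. With another background correction, normexp, it was 2.58, still past the threshold. In bulk RNA, a change in the number of cells of one type and a change in RNA per cell cannot be told apart. The endothelial, leukocyte and theca and stroma marker sums given above also reached higher values in C2. By single genes, the leukocyte list had a median change of 1.40 against C1 and 0.94 against NC1. Of its 6 tested genes, 2 were higher past the threshold in each comparison and 0 were lower. The endothelial list had a median change of -0.11 against C1 and -0.30 against NC1. KDR alone of its 4 tested genes was higher past the threshold. Of the theca and stroma list, LUM was higher by 3.79 against C1 and 3.64 against NC1. The dimmer DCN probe was higher by 4.08 and 3.29, while the brightest DCN probe gave -0.07 and 0.32. By the brightest probe of each gene, the median change of the theca and stroma list was -0.30 against C1 and -0.16 against NC1. LUM alone of its 7 tested genes passed. The part of these cells in the TGFBR2 result was not tested.

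BMPR2, the type II receptor shared by GDF9 and BMP15, was higher in C2 with both of its probes. The brightest probe read 5.08, 6.11, 6.12, 6.22 and 5.50 on C2 replicates 1 to 5. It ran from 4.00 through 4.29 to 4.55 in C1 and from 4.11 through 4.55 to 5.09 in NC1. All C2 arrays were above all C1 arrays, and 4 of 5 were above all NC1 arrays, replicate 1 falling just under the highest calf array. The change was 1.50 (SE 0.22, 2.83-fold) against C1, with adjusted p = 2.33e-05 by limma, and 1.24 (SE 0.22, 2.36-fold) against NC1, with adjusted p = 0.000182. The other BMPR2 probe read -1.68, 0.28, -0.43, -1.54 and -1.41 on C2 replicates 1 to 5, against -2.38 to -1.84 in C1 and -2.61 to -1.67 in NC1. It gave the same change against C1 and NC1, 1.12 (SE 0.30), with limma's adjusted p = 0.00585 and 0.00611, but its C2 arrays were less alike (SD 0.85) than those of the brightest probe (SD 0.50). Taken within the first scan day alone, the change of the brightest probe was 1.22 against C1 (adjusted p = 0.0209 by limma) and 1.17 against NC1 (adjusted p = 0.0243), short of the threshold, and within the second it was 1.90 and 1.42, past it.

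ACVR2A, an activin type II receptor, did not pass the threshold. It read 1.09, 0.25, 0.06, -0.55 and 0.55 on C2 replicates 1 to 5, with -0.56 to 0.35 in C1 and -0.61 to 0.12 in NC1, so the stages overlapped. The change was 0.39 (SE 0.25, adjusted p = 0.225 by limma) against C1 and 0.56 (SE 0.25, adjusted p = 0.0846) against NC1. Without C2 replicates 3 and 4 together, it was 0.91 against NC1, with adjusted p = 0.00712 by limma.

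Of the type I receptors, only BMPR1B, which serves BMP15, passed the threshold. Its level was 1.21, 0.22, 1.05, 0.90 and 1.06 on C2 replicates 1 to 5. The C1 arrays spread from -1.78 through -0.69 to 0.72, and the NC1 arrays from -1.01 through -0.34 to -0.10. All C2 arrays were above all NC1 arrays, and 4 of 5 were above all C1 arrays, C1 replicate 5 lying above C2 replicate 2. The change was 1.56 (SE 0.36, 2.94-fold) against C1, with adjusted p = 0.00201 by limma, and 1.39 (SE 0.36, 2.61-fold) against NC1, with adjusted p = 0.00481. This was the least firm of the 4 calls. Against NC1 it was lost in 6 of 17 fits that each left out 1 array (NC1 replicate 3 or 6, or C2 replicate 1, 3, 4 or 5), with adjusted p up to 0.0128, whereas against C1 it held in all 17. With each close pair of C2 arrays averaged to 1 sample, limma's adjusted p was 0.0165 against C1 and 0.0315 against NC1. Within the first scan day the changes were 1.05 (adjusted p = 0.125 by limma) and 1.09 (adjusted p = 0.106), short of the threshold, and within the second 2.09 and 1.72, past it. The only C2 arrays of the second day were the close pair of replicates 3 and 4, counted there as separate samples. With the slide as a block, the change against NC1 was 1.26, with adjusted p = 0.0114 by limma, and the call was lost.

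BMPR1A, another BMP type I receptor, read 2.02, 1.77, 2.37, 2.49 and 1.34 on C2 replicates 1 to 5, with 1.13 to 1.67 in C1 and 1.33 to 1.96 in NC1. Every C2 array except replicate 5 was above every C1 array. The change against C1 was 0.63 (SE 0.20, adjusted p = 0.0171 by limma) and against NC1 0.30 (SE 0.20, adjusted p = 0.25), so neither passed. The change against C1 passed with the scan day as a block, at 0.66 (adjusted p = 0.00916 by limma), within the second scan day, at 1.08 (adjusted p = 0.0064), and without C2 replicate 5, at 0.80 (adjusted p = 0.00285). A further BMPR1A probe was above background on 2 of 6 NC1, 3 of 6 C1 and 1 of 5 C2 arrays and was not tested.

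ACVR1, a type I receptor for BMPs, was below the array median on all arrays except C2 replicate 1. Its level was 0.03, -0.90, -0.63, -0.56 and -0.95 on C2 replicates 1 to 5, -1.86 to -0.76 in C1 and -1.58 to -1.03 in NC1. All C2 arrays were above all NC1 arrays, by a change of 0.69 (SE 0.21, adjusted p = 0.0128 by limma), and the change against C1, where arrays overlapped, was 0.55 (SE 0.21, adjusted p = 0.0407). The change against NC1 missed the threshold narrowly and passed it without C1 replicate 4, C2 replicate 2 or C2 replicate 5, with adjusted p = 0.00653, 0.00921 and 0.00972 by limma. It also passed with the slide as a block, at 0.71 (adjusted p = 0.00826), and with quantile normalization (adjusted p = 0.00984).

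TGFBR1, the type I receptor that serves GDF9 and the TGF-beta ligands, gave the smallest C2 changes of the 10 genes by the brightest probe of each. It read 4.45, 3.80, 5.17, 5.48 and 4.61 on C2 replicates 1 to 5, 4.29 to 5.10 in C1 and 4.23 to 5.34 in NC1. The highest and the lowest of all its arrays were both C2 arrays. The change was 0.10 (SE 0.27, adjusted p = 0.797 by limma) against C1 and -0.04 (SE 0.27, adjusted p = 0.921) against NC1, and the sign of the change against C1 turned with the 75th percentile and quantile scalings. A second TGFBR1 probe was above background on 1 of 6 NC1, 3 of 6 C1 and 5 of 5 C2 arrays and was not tested in the main fit. In a fit without the filter on dim probes, its change was 0.39 (SE 0.29, adjusted p = 0.312 by limma) against C1. Against NC1 it was 0.76 (SE 0.29, adjusted p = 0.053), short of the threshold.

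**Figure D2:**
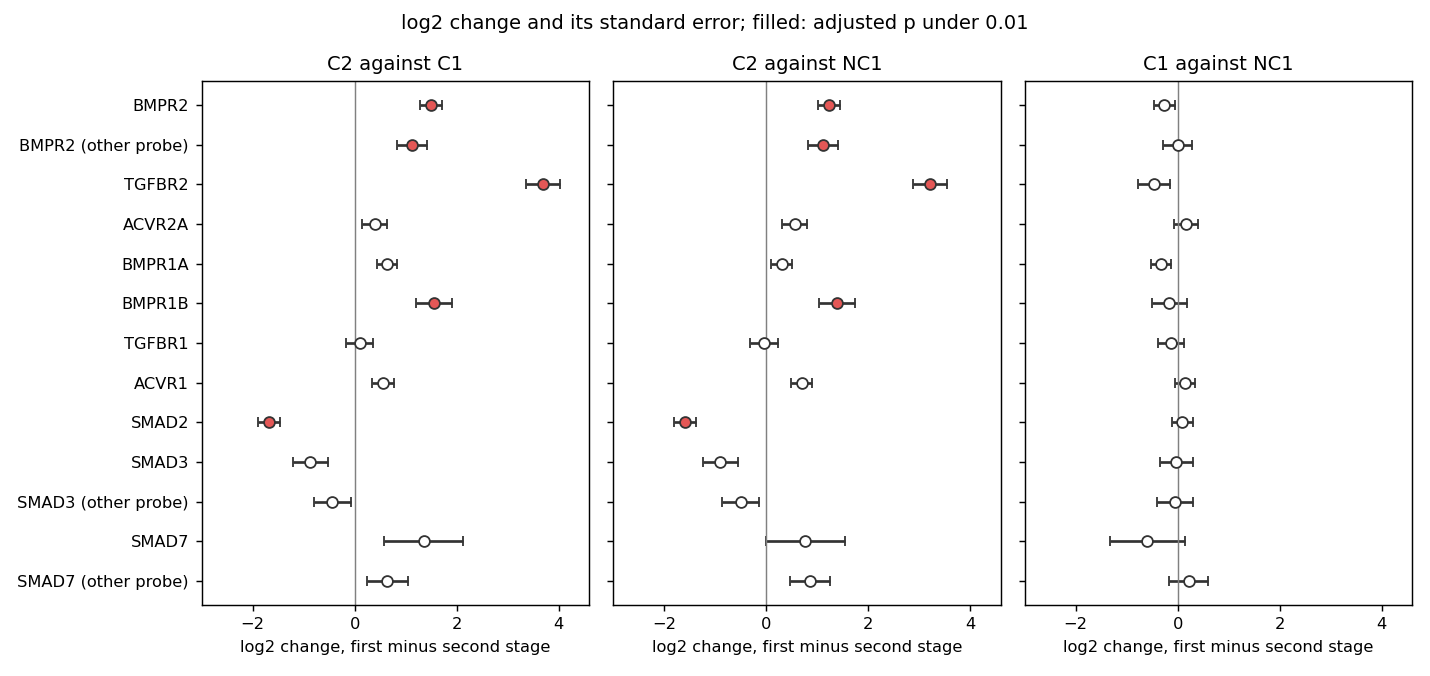
Log2 change (x axis) with its standard error for each tested probe of the 10 genes (rows) in the 3 comparisons of stages (panels); filled points passed an adjusted p under 0.01. TGFBR2, both BMPR2 probes and BMPR1B lie to the right and SMAD2 to the left in both C2 panels, and no point is filled in C1 against NC1.

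SMAD2, a carrier of TGF-beta, activin and GDF9 signals, was the member that was lower in C2. It read 5.06, 5.07, 5.45, 5.92 and 4.83 on C2 replicates 1 to 5. The C1 arrays ran from 6.58 through 6.83 to 7.49 and the NC1 arrays from 6.63 through 6.73 to 7.27. All C2 arrays were below all immature arrays, with a gap between them. The change of SMAD2 was -1.67 (SE 0.22, a 3.19-fold fall) against C1, with adjusted p = 7.02e-06 by limma, and -1.58 (SE 0.22, a 3.00-fold fall) against NC1, with adjusted p = 1.32e-05. The call held in all 17 fits without 1 array, and within the first and second scan days the change against C1 was -1.95 and -1.25.

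SMAD3, the close relative of SMAD2, split the C2 arrays with both of its probes. The brightest probe read 5.40, 3.28, 3.12, 3.39 and 5.00 on C2 replicates 1 to 5, with 4.73 to 5.30 in C1 and 4.67 to 5.22 in NC1. Replicates 2, 3 and 4 were below every immature array, replicate 1 was above every one, and replicate 5 was within their range. The other probe read 0.44, -1.36, -1.80, -1.86 and 0.31, with -0.69 to -0.17 in C1 and -0.84 to -0.02 in NC1, so that replicates 2, 3 and 4 were again below and replicates 1 and 5 above every immature array. The mean change of the brightest probe was -0.87 (SE 0.34, adjusted p = 0.0483 by limma) against C1 and -0.90 (SE 0.34, adjusted p = 0.0423) against NC1, and that of the other probe -0.44 (SE 0.36, adjusted p = 0.355) and -0.50 (SE 0.36, adjusted p = 0.298). Without C2 replicate 1 the brightest probe passed the threshold at -1.21 against C1 (adjusted p = 0.0027 by limma) and -1.24 against NC1 (adjusted p = 0.00231), so its call rested on which C2 arrays entered. With quantile normalization it passed against NC1 at -1.08 (adjusted p = 0.00993 by limma). Within the second scan day, which held C2 replicates 3 and 4, the change against C1 was -1.55 (adjusted p = 0.00047 by limma), and within the first, which held replicates 1, 2 and 5, it was -0.45 (adjusted p = 0.559).

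SMAD7, the inhibitor that the pathway itself can induce, was as uneven. The brightest probe read 4.85, 0.14, 1.44, 1.50 and 5.24 on C2 replicates 1 to 5, with -0.18 to 2.23 in C1 and 0.71 to 2.53 in NC1. Replicates 1 and 5 were above every immature array and the other 3 were within or, for replicate 2 against NC1, below their range. The other probe read 0.51, -0.97, -1.48, -1.70 and 0.60, with -1.86 to -0.56 in C1 and -2.11 to -0.66 in NC1, again with replicates 1 and 5 above all. The change of the brightest probe was 1.36 (SE 0.78, adjusted p = 0.174 by limma) against C1 and 0.76 (SE 0.78, adjusted p = 0.464) against NC1, and that of the other probe 0.64 (SE 0.40, adjusted p = 0.214) and 0.86 (SE 0.40, adjusted p = 0.0957). With C2 replicates 1 and 5 left out together, the change of the brightest probe turned to -0.25 and -0.85.

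**Figure D3:**
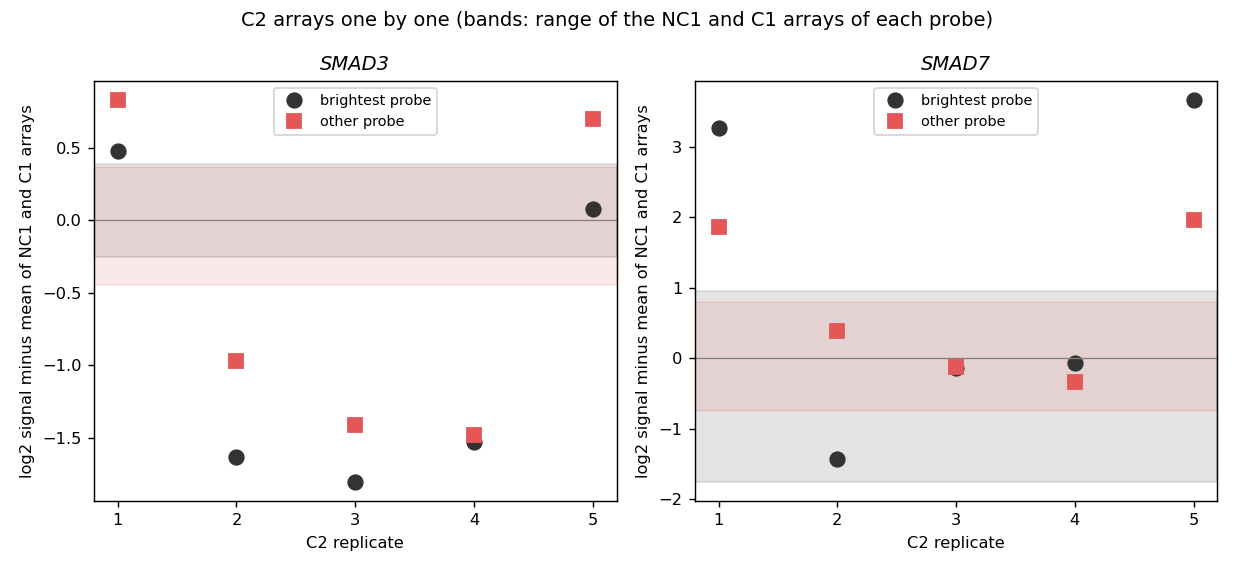
Log2 signal of both probes of SMAD3 and SMAD7 (y axis, minus the mean of that probe over the NC1 and C1 arrays) on each C2 replicate (x axis); the bands span the NC1 and C1 arrays of each probe. Both probes of a gene place replicates 1 and 5 above replicates 2, 3 and 4.

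The same layout was frequent on these arrays. Replicates 1 and 5 were both above replicates 2, 3 and 4 in 25.2% of all tested probes and both below them in 21.1%. Of the 13 probes of receptors and SMADs, 6 had these replicates above (both SMAD3 probes, both SMAD7 probes, ACVR2A and BMPR1B) and 2 had them below (SMAD2 and the brightest BMPR2 probe). The distance between the 2 sets of arrays was 4.02 and 1.94 for the SMAD7 probes and 1.94 and 2.05 for the SMAD3 probes, in contrast to -0.13 for TGFBR2. The median SD of the 10 genes was 0.31 in NC1, 0.33 in C1 and 0.48 in C2, close to the 0.34, 0.33 and 0.50 of all tested probes.

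Counted over the 10 genes, 3 were higher and 1 was lower in C2 than in C1, where 28.1% of all 13865 tested probes passed the threshold (15.3% higher and 12.8% lower). The same 4 genes passed in C2 against NC1, 3 higher and 1 lower, beside 28.1% of all probes (15.5% higher and 12.6% lower); both counts use the same C2 arrays. No test set the 4 of 10 apart from that background. All C2 arrays were above all C1 arrays for 2 of the 10 genes and below for 1, where 10.7% and 11% of all probes did so, and against NC1 the counts were 3 and 1, where 10.6% and 10.3% did. The median change of the 10 genes was 0.59 against C1 and 0.62 against NC1, while the median over all tested probes was 0.02 and 0.11. Among the 3 stages together, 4 of the 10 genes passed, beside 28.6% of all probes.

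Between C1 and NC1, which asks whether cells around competent and incompetent immature oocytes differ, none of the 10 genes passed, beside 0.0577% of all probes (0.00721% higher and 0.0505% lower). That background was 1 probe higher and 7 lower, and with array weights it was 61 higher and 178 lower, again with 0 of the 10 genes. None had all C1 arrays above or below all NC1 arrays, which 0.887% and 1.21% of all probes had. Their changes ran from -0.59 for SMAD7 to 0.16 for ACVR2A, with limma's adjusted p between 0.617 and 0.991. At an unadjusted p under 0.05 limma gave 0 and the methods' one-factor test 1 of the 10, BMPR1A. The two-sided exact permutation test gave its smallest p, 0.026, for BMPR1A, which was lower in C1 by a change of -0.33 (SE 0.19). The limma test, which adjusts over all probes, gave it adjusted p = 0.617.

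The other genes of the pathway were taken from 7 lists of 64 genes, of which 58 had a probe and 50 were tested. In C2 against C1, 11 were higher and 6 lower, and against NC1 10 were higher and 8 lower, while of all probes 15.3% were higher and 12.8% lower against C1, and 15.5% and 12.6% against NC1. These shares are the background for the list counts that follow, and no test set any list apart from them. No gene of these lists passed in C1 against NC1 (3 did with array weights). There 5 of the 50 had an unadjusted limma p under 0.05, and 7 did by the ordinary t-test on the 2 stages.

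Among the ligands, TGFB2 was higher in C2, at a mean level of 2.06 against -1.92 in C1 and -2.21 in NC1, by a change of 3.99 (SE 0.65, adjusted p = 8.37e-05 by limma) and 4.27 (SE 0.65, adjusted p = 4.28e-05). TGFB3 was higher by 2.04 (SE 0.42) and 1.53 (SE 0.42). Both are ligands of TGFBR2. AMH, a hormone of granulosa cells, was lower in C2, by a change of -2.14 (SE 0.28) against C1 and -2.77 (SE 0.28) against NC1. GDF9, the oocyte factor, had a mean level of 1.57 in NC1, -1.24 in C1 and -1.73 in C2. It fell by 3.30 (SE 0.52, adjusted p = 6.64e-05 by limma) between NC1 and C2, and its change was -0.49 (adjusted p = 0.482) between C1 and C2 and -2.81 (adjusted p = 0.0177) between NC1 and C1. The other tested oocyte markers, ZP3 and NLRP5, were also lower in C2 than in NC1. The summed level of the tested oocyte markers, GDF9 among them, ran from 4.90 to 6.15 in NC1. The sum ran from 2.28 to 4.70 in C1 and 1.65 to 2.93 in C2. The part of RNA from oocytes in these values was not tested. BMP15 was above background on 5 of 6 NC1, 3 of 6 C1 and 0 of 5 C2 arrays and was not tested. In all, 2 ligands were higher and 2 lower of 10 tested against C1, and 2 higher and 3 lower against NC1.

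The secreted antagonists that passed were all lower in C2, 3 of 6 tested against C1 and 2 of 6 against NC1, where 12.8% and 12.6% of all probes were lower. NOG, which traps BMPs, had a mean level of 2.99 in NC1, 2.87 in C1 and -1.35 in C2, a change of -4.22 (SE 0.58, adjusted p = 1.3e-05 by limma) against C1 and -4.34 (SE 0.58, adjusted p = 9.84e-06) against NC1, with every C2 array below every immature array. FST, which binds activin, changed by -1.49 (SE 0.23) against C1 and -1.51 (SE 0.23) against NC1 with its brightest probe, and by -1.53 and -1.63 with another. CHRD, a further BMP antagonist, fell by 0.77 (SE 0.20) against C1, and its change against NC1 was -0.64 (adjusted p = 0.0162 by limma). FSTL3, an antagonist of activin, had changes in the other direction that missed the threshold, 1.61 (adjusted p = 0.012 by limma) against C1 and 1.04 (adjusted p = 0.0932) against NC1.

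The co-receptors that passed were higher, 2 of 6 in each comparison, where 15.3% and 15.5% of all probes were higher. RGMB, a BMP co-receptor, rose by 1.87 (SE 0.31) against C1 and 1.95 (SE 0.31) against NC1, with all C2 arrays above. ENG, a TGF-beta co-receptor abundant in endothelium, rose by 1.44 (SE 0.37) and 1.56 (SE 0.37). BAMBI, a pseudoreceptor, and NEO1, which binds RGM proteins, had changes of -1.09 (adjusted p = 0.0472 by limma) and -0.69 (adjusted p = 0.0329) against NC1, short of the threshold. Of the other receptors, neither of the 2 tested passed. AMHR2, a receptor of AMH, was above background on 6 of 6 NC1, 6 of 6 C1 and 3 of 5 C2 arrays. Its mean level was -0.91 in NC1, -1.35 in C1 and -3.34 in C2, and it was not tested. Of the other SMADs, SMAD1, the carrier of BMP signals, was higher in C2 than in NC1. Its change was 0.96 (SE 0.27, adjusted p = 0.00822 by limma) against NC1 and 0.84 (adjusted p = 0.0192) against C1. SMAD9 was above background on 4 of 6 NC1, 6 of 6 C1 and 5 of 5 C2 arrays. Its mean level was -2.75 in NC1, -2.55 in C1 and -0.91 in C2, and it was not tested.

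Of 12 tested intracellular regulators, 2 were higher against C1, and 1 was higher and 1 lower against NC1. NEDD4L, a ubiquitin ligase of activated SMAD2 and SMAD3, rose by 2.84 (SE 0.39, adjusted p = 1.37e-05 by limma) against C1, and its change against NC1 was 1.06 (adjusted p = 0.0363). SMURF2, another ubiquitin ligase of the pathway, rose by 0.76 (SE 0.20) against C1, and its change against NC1 was 0.18. SKIL, a repressor of SMADs, fell by 1.45 (SE 0.26) against NC1, and its change against C1 was -0.32. The probe assigned to FKBP1A, which holds type I receptors inactive, carries the name of its paralogue FKBP1B on the array, so its rise of 0.90 (SE 0.22) against NC1 may belong to either gene.

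Of 12 tested target genes, 5 were higher and 1 lower against C1, and 4 higher and 2 lower against NC1, beside 28.1% of all probes called in each comparison. TNFAIP6, which links hyaluronan in the expanding cumulus, rose from a mean level of 1.59 in NC1 and 2.66 in C1 to 9.29 in C2, a change of 6.63 (SE 0.73) against C1 and 7.70 (SE 0.73) against NC1. PTX3, a further protein of the cumulus matrix, rose by 4.98 (SE 0.79) and 5.12 (SE 0.79), and PTGS2, the inducible enzyme of prostaglandin synthesis, by 4.75 (SE 0.47) and 3.82 (SE 0.47). ID4, of a family of BMP targets, rose by 4.21 (SE 0.37) and 3.96 (SE 0.37). For these 4 genes every C2 array was above every immature array. The targets that were lower, named after their values were seen, were KLF10 and ID3. KLF10, a TGF-beta target, changed by -2.22 (SE 0.32) against C1 and -2.59 (SE 0.32) against NC1, with every C2 array below every immature array. ID3, of the same family as ID4, fell by 1.98 (SE 0.51, adjusted p = 0.00443 by limma) against NC1, and its change against C1 was -1.44 (adjusted p = 0.0297). The changes of ID2 were -0.31 and -0.36 and those of ID1 0.997 and 0.63, none past the threshold. The list joins genes that other signals, such as the gonadotropin surge, also induce.

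**Figure D4:**
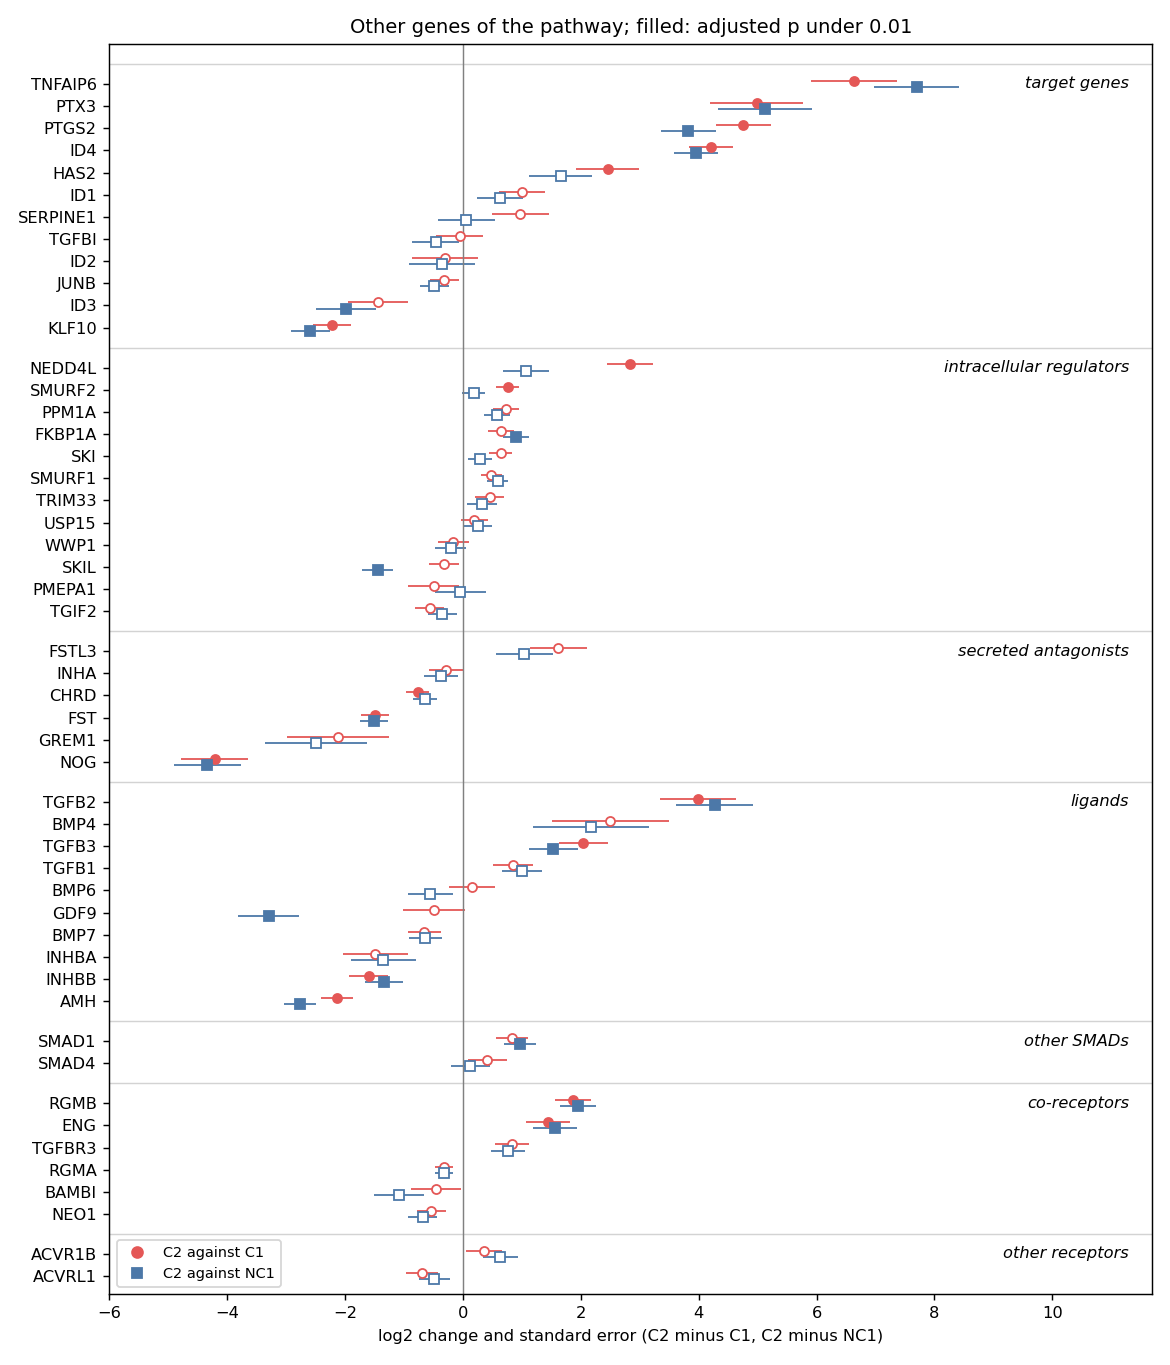
Log2 change and standard error (x axis) in C2 against C1 (circles) and C2 against NC1 (squares) for the tested genes of the 7 pathway lists (rows, brightest probe of each gene); filled symbols passed an adjusted p under 0.01. The filled symbols among secreted antagonists lie left of 0, those of co-receptors right of 0, and targets and ligands hold both.

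The named genes outside these lists whose centred profile over the 17 arrays lay closest to that of TGFBR2, out of 9482 named probes, were SAT1, NDRG4 and GLRX, with root mean square differences of 0.34, 0.39 and 0.40 on the log2 scale, where the TGFBR2 profile itself had a root mean square of 1.67. For SMAD2, with a root mean square of 0.81, they were CCDC62, ZNF189 and ANAPC5, at 0.16, 0.17 and 0.17. The C2 against C1 change of SAT1 was 3.60, near the 3.69 of TGFBR2, and that of CCDC62 was -1.71, near the -1.67 of SMAD2. The likeness is a description over arrays that share their stages and no more.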

How the data were processed

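Cumulus cell RNA (0.35 µg per sample) of 6 NC1, 6 C1 and 5 C2 animals was labelled with Cy3 and hybridised to 17 single-colour Agilent bovine arrays on 6 slides. The authors deposited linear intensity values per spot from Agilent Feature Extraction 10.5.1.1, background-subtracted and detrended, and a table of log2 values deposited for 15256 probes, which matched the median-scaled spot signals. The number of arrays limits precision.

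Spots flagged as non-uniform or outliers were left out, spots of a probe were averaged on the log2 scale, and each array's median was subtracted. Probes present (above background in at least 0.5 of their spots) on 80% of the arrays of each stage were kept. limma 3.58.1 in R 4.3.3 fitted the 3 stages in 1 model, with Benjamini-Hochberg adjustment over 13865 probes and a threshold of 0.01, after a test on simulated data. Single genes also had a two-sided exact permutation test. Gene symbols came from RefSeq accessions or the array's names and descriptions; no coordinates were used because the array names no genome build. The groups were taken from the sample labels. Genes named were all receptor and SMAD members, up to 4 genes past the threshold per pathway list by size of change, and the 3 nearest profiles of the 2 members with the largest change. KLF10, ID1, ID2, ID3, FSTL3, BAMBI, NEO1, AMHR2, SMAD9 and DCN were named after their values were seen. Members, lists and tests were chosen with earlier results of these data known. Replicate numbers were checked for pairing: deviations of same-numbered samples correlated between -0.32 and 0.25, so they were not treated as pairs. Alternatives covered scaling, background correction, filters, probe choice, array weights, replicate, slide and scan-day blocks, each scan day alone, averaging or leaving out the close C2 arrays (leaving out was chosen after seeing the data), and leaving out each array.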

Additional observations from a re-analysis of the deposited data

Results flagged for a closer look

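Within the stages, 2 of the 39 groups of arrays held 1 array far from the rest; chance alone flags about 1 in 20 groups. ACVR1 was lowest on C1 replicate 4, at -1.86, where the other C1 arrays ran from -1.15 to -0.76. The brightest SMAD3 probe was highest on C1 replicate 6, at 5.30, where the other C1 arrays ran from 4.73 to 4.93.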

How the results depend on the processing

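Of the receptors and SMADs, TGFBR2 and SMAD2 kept their direction and passed the threshold in both C2 comparisons under every alternative, and BMPR2 under all but the first scan day alone. TGFBR2 ranged from 2.58 to 4.19 against C1 and from 2.24 to 3.38 against NC1. BMPR1B kept its direction but passed in 11 of 18 other settings and in 11 of 17 fits without 1 array against NC1, and in 13 of 18 and 17 of 17 against C1. Calls within a scan day rest on 2 or 3 arrays per stage, and the C2 arrays of the second day were a close pair.

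Within the first scan day alone, 1295 probes differed among the stages instead of 3969, 1361 differed against C1 and 1397 against NC1, 2 member genes passed against C1 and 2 against NC1, and 9 and 10 pathway genes did. Between C1 and NC1, array weights called 61 probes higher and 178 lower instead of 1 and 7, and the second scan day alone 3 and 19. The replicate block called 0 and 0 (limma, 1164 probes at an unadjusted p under 0.05). The ordinary t-test on the 2 stages called 0 and 1. Without 1 array, limma called 1 to 19 probes. With array weights, 3 pathway genes passed in C1 against NC1, and without 1 array between 0 and 1 did, against 0 in the main setting. With the replicate number as a block, 4 members passed against C1 and 4 against NC1, as in the main setting, and 3048 probes differed among the stages. The methods' one-factor test called 3641 probes among the stages. For C2, the ordinary t-test on the 2 stages called 2534 probes against C1 and 2373 against NC1, where limma called 3892 and 3893. That t-test called 3 members against C1 and 4 against NC1. The 75th percentile moved the median change of all probes in C2 against C1 from 0.02 to -0.11, and the split of called probes from 2117 higher and 1775 lower to 2114 higher and 2514 lower. Against NC1, normexp moved that split from 2152 and 1741 (55.3% higher) to 2468 and 1200 (67.3% higher).

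The changes that reversed were all short of the threshold in both settings. TGFBR1 against C1 turned to -0.031 with the 75th percentile, -0.086 with quantile normalization, -0.36 within the first scan day, -0.055 with close C2 arrays averaged and -0.32 without C2 replicates 3 and 4, and ranged from -0.099 to 0.32 without 1 array. TGFBR1 against NC1 turned to 0.18 with normexp, 0.0076 with array weights, 0.0078 with the replicate block, 0.0016 with the scan day as a block, 0.35 within the second scan day and 0.073 without C2 replicates 1 and 5, and ranged from -0.24 to 0.18 without 1 array. ACVR2A turned to -0.25 against C1 and -0.020 against NC1 within the second scan day. SMAD7 turned to -0.25 against C1 and -0.85 against NC1 without C2 replicates 1 and 5, and to -0.58 against NC1 within the second scan day. In C1 against NC1, normexp turned BMPR2 to 0.055, TGFBR1 to 0.18, SMAD3 to 0.30 and ACVR1 to -0.084. There the first scan day turned TGFBR1 to 0.13, SMAD3 to 0.18, SMAD7 to 0.14, BMPR1B to 0.038 and TGFBR2 to 0.0040, and leaving out 1 array gave -0.022 to 0.17 for SMAD2, -0.11 to 0.028 for SMAD3 and -0.45 to 0.053 for BMPR1B. The cause of these shifts was not tested.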
